A study of Mus musculus with 24 samples.

Results

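The genes for the proteins of the cytosolic ribosome were followed in mouse retinal organoids (MROs) at D20, D22, D25 and D30 of culture. Members were the protein-coding genes whose symbol starts with Rpl or Rps followed by a digit, an a or a p; the Rps6k kinases and the symbols with -ps, which mark pseudogene copies, were left out. By this rule 86 of the 126602 counted features were members, 52 with an Rpl and 34 with an Rps symbol. Of these, 77 encode the canonical proteins, 46 of the large and 31 of the small subunit, 8 are paralogs, and 1, Rps19bp1, encodes a binding partner of Rps19 that is not part of the ribosome. The 86 genes lie on 19 chromosomes.

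Each of the 24 RNA libraries came from 1 whole MRO, with 6 MROs per timepoint, and was made from total RNA after removal of ribosomal RNA. All MROs were grown from the wild-type mouse embryonic stem cell line E14Tg2a, carried the genotype label Control, had been given the retinoid EC23 earlier in the protocol and then the solvent water only, and belonged to a single independent experiment. The groups therefore shared genotype and treatment, and the timepoint cannot be told apart from the day of harvest. Every model group is 1 cell line, and the p-values measure the spread between MROs of this experiment. Between 13634846 and 19477108 reads per MRO were counted on a feature.

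The cytosolic ribosome reads messenger RNA and joins amino acids. Its large subunit holds the site of peptide bond formation and a flexible stalk of the proteins Rplp0, Rplp1 and Rplp2 that recruits translation factors, and its small subunit decodes the message. Ribosomal protein mRNAs of mammals typically begin with a C followed by a run of pyrimidines, the terminal oligopyrimidine tract, through which their translation is controlled by mTORC1 and Larp1, and dividing cells are known for a high demand for new ribosomes. Retinal progenitors divide, whereas photoreceptors and the other retinal neurons do not.

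The tract at the start of the mRNA is the sequence feature these genes are best known for, and a few starts are printed for that reason. RefSeq (GRCm38.p6) listed 78 promoters for 66 of the 86 genes. A C followed by 4 bases that are each C or T, read on the transcribed strand only, began exactly at the listed start in 14 of these 78 promoters (17.95%) and in 823 of all 32851 promoters (2.505%). Starting anywhere within 15 bases of the listed start, it was found in 64.1% of the promoters of members and in 40.95% of all promoters, and the letters TATAA 15 to 40 bases upstream were found in 6.41% and 3.516%. Each window below runs from 12 bases before the start to 18 bases from it, and capitals mark the tract. Rps6 lies at chr4:86857350-86857379, Rpl35 at chr2:39005114-39005143, Rps21 at chr2:180257367-180257396, Rpl15 at chr14:18270969-18270998, Rpl41 at chr10:128549151-128549180 and Rpl7l1 at chr17:46782639-46782668, with Rps21 on the plus strand and the other genes on the minus strand. The first 4 windows hold the tract. Among these genes Rps6, Rpl35 and Rpl15 fell from D20 to D30 while Rps21 did not pass the threshold. Rps21 has 2 listed starts, and only the start with the tract is printed. The windows of Rpl41 and Rpl7l1, which did not pass either, hold none at the listed start. The 6 windows show both cases and do not stand for the group. Of 14 tested members with a tract at a listed start, 13 were lower at D30 (median log2 fold change -1.26). So were 44 of 49 tested members with a listed start and no tract at it (median -1.12). This split does not separate genes with a tract from genes without. Of the 66 genes with a listed start, 47 hold a tract within 15 bases of it, and 14 exactly at it.
Rps6: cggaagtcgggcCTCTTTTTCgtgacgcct
Rpl35: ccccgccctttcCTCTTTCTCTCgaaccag
Rps21: cgaggacccgccCTCCTgcccaatagtgct
Rpl15: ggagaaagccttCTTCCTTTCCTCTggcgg
Rpl41: acgggccggctcggaagtgacgacaccgag
Rpl7l1: aggctgcgcaagcgcagtagctgaagcacc

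The reads on the 86 genes made up a smaller part of the library at each later timepoint. They took 2.43% to 3.21% of the counted reads of the D20 MROs (median 3.04%), 1.58% to 2.95% at D22 (median 2.05%), 1.16% to 1.70% at D25 (median 1.35%) and 1.01% to 1.33% at D30 (median 1.17%). The means were 2.90% ± 0.31 (SD, n = 6) at D20 and 1.17% ± 0.10 (SD, n = 6) at D30, which is 2.49-fold less. Every D25 and every D30 MRO lay below every D20 MRO. D25 and D30 overlapped, and so did D20 and D22.

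**Figure D1:**
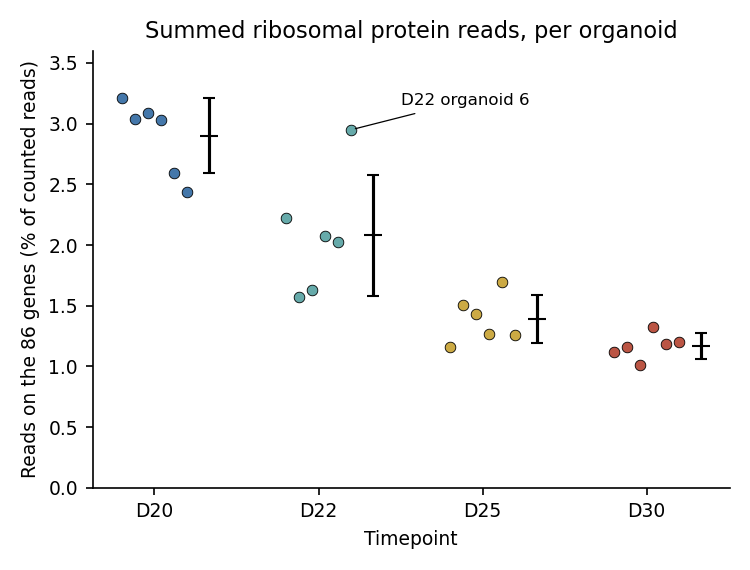
Reads counted on the 86 ribosomal protein genes as a percent of all counted reads (y axis) in each MRO (points, in replicate order) at each timepoint (x axis), with mean ± SD beside the points. The 6 D30 MROs sit between 1.01% and 1.33%, below the 6 D20 MROs at 2.43% to 3.21%, and D22 organoid 6 stands at 2.95% among D22 MROs that otherwise reach at most 2.23%.

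The overlap of D20 and D22 came from D22 organoid 6. With a share of 2.95% it lay inside the D20 range, and 79 of the 83 members with enough reads for testing were above the lowest D20 MRO in it, against 8 to 19 of 83 in the other D22 MROs. Markers moved with it: the summed level of 12 photoreceptor markers was 2929 normalized CPM in this MRO, the lowest of the D22 group (up to 6451), and that of 13 retinal progenitor markers was 1321, the highest of the group (down to 1087). Mueller glia markers summed to 1347 (down to 1076 in the group), pigment epithelium markers to 241.8, the highest of all 24 MROs, and markers of bipolar, amacrine, horizontal and ganglion cells to 177.4, the lowest of the group (up to 334.8). The 20 proliferation markers summed to 826 normalized CPM in it, near the D22 median of 810. Normalized CPM are read counts scaled by TMM (trimmed mean of M values) to libraries of 1e+06 reads. The part of these differences in the ribosomal protein values was not tested, and counts and medians that compare D22 with another timepoint are given with and without this MRO.

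From D20 to D30 almost the whole group fell. Of the 83 members tested, 75 were lower at D30 at an adjusted p below 0.01 and 0 were higher (edgeR's quasi-likelihood test, Benjamini-Hochberg adjustment over 46949 features), whereas 13.0% of all tested features were lower and 13.9% were higher. The median log2 fold change of the 83 was -1.14, against -0.04 over all tested features and 0.15 over the 13263 protein-coding genes tested. In 72 of the 83, every D30 MRO was below every D20 MRO, which held for 9.34% of all tested features. With DESeq2, too, 0 members were higher, and all 77 members with an unadjusted p below 0.05 in edgeR were lower.

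Members of both subunits were among those that fell. The large subunit had 43 of 46 canonical members lower, with a median log2 fold change of -1.13, and the small subunit 29 of 31, with a median of -1.22. The summed normalized CPM of the large subunit was 1.74 ± 0.04 times that of the small subunit at D20 (SD, n = 6; range 1.69 to 1.78) and 1.76 ± 0.07 times at D30 (SD, n = 6; range 1.68 to 1.84), so that the ratios overlapped while both sums fell. In bulk MRO RNA, fewer cells of a type with high ribosomal protein expression and less of this RNA per cell cannot be told apart.

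**Figure D2:**
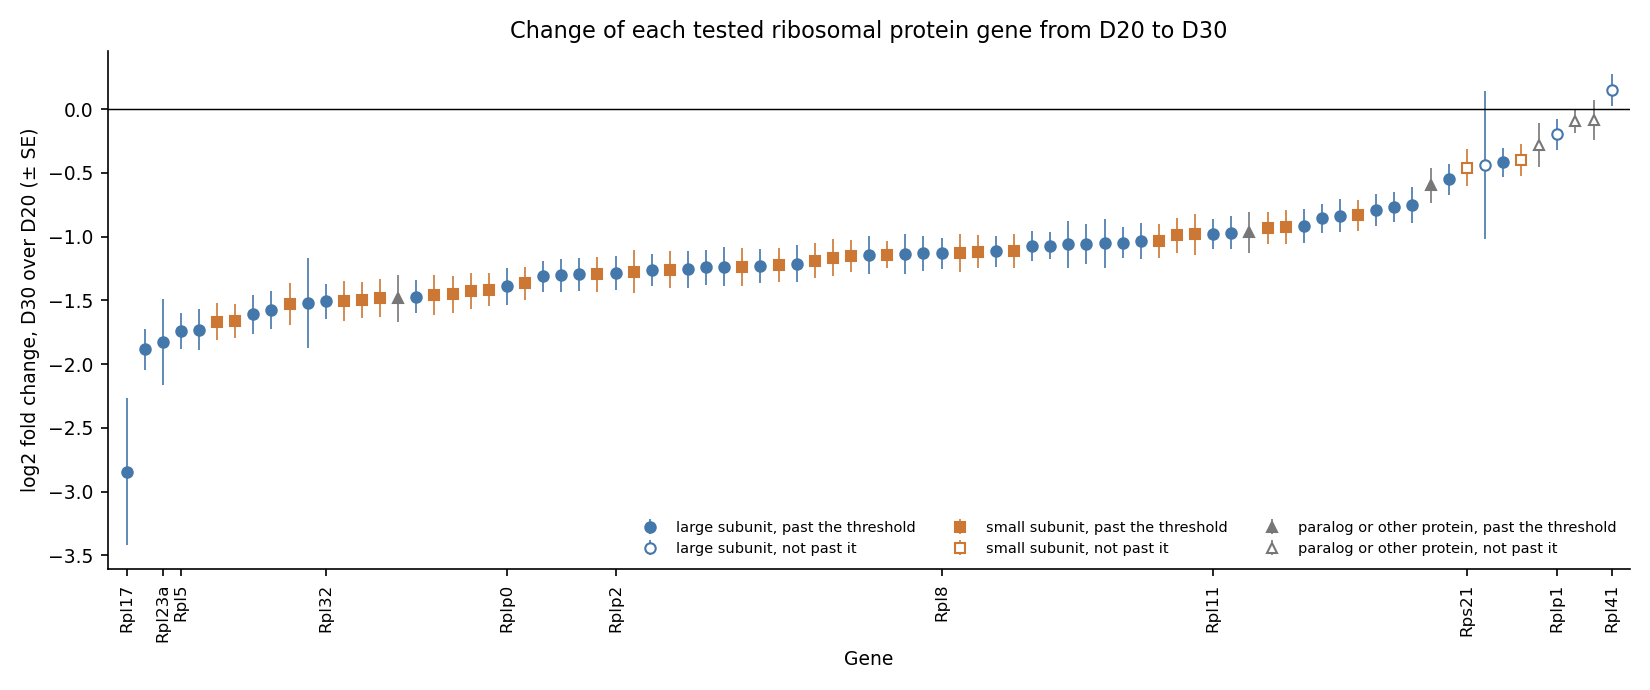
log2 fold change of D30 over D20 with its SE (y axis) for each of the 83 tested genes (x axis, ordered by change, a few of them named), by subunit and by the 0.01 threshold on the adjusted p. Filled symbols, 75 genes, all lie below 0; the open symbols are the 8 genes that did not pass, from Rps21 and Rpl29 to Rpl41 at 0.15.

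Among the genes with the largest falls were members of both subunits with abundant reads. Rpl5, which carries the 5S ribosomal RNA into the large subunit together with Rpl11 and with it can bind Mdm2, spanned 1820 to 2264 normalized CPM at D20 (median 2007) and 556 to 704 at D30 (median 590). No D30 MRO came near a D20 MRO, and its log2 fold change was -1.74 ± 0.14 (SE; edgeR adjusted p = 3.67e-11). At D20 it alone took 7.06% of the reads on the 86 genes, and 4.90% at D30. Rpl11, its partner, ranged from 318 to 458 (median 412) at D20 and from 167 to 252 (median 198) at D30, a smaller log2 fold change of -0.98 ± 0.12 (SE; edgeR adjusted p = 6.76e-08).

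Rpl23, a further large subunit protein that can bind Mdm2, went from 797 to 1053 (median 915) at D20 to 227 to 328 (median 277) at D30. The D20 and D30 values did not overlap.

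Among the 82 members whose base mean (the mean normalized count) reached 100, Rpl17, Rpl7a and Rpl23a varied most between MROs of the same timepoint. The mean coefficient of variation within timepoints was 69.7% for Rpl17, 49.8% for Rpl7a and 43.1% for Rpl23a. Rpl17 had the lowest log2 fold change of all members, -2.84 ± 0.58 (SE; edgeR adjusted p = 0.000221), from values of 5.91 to 32.9 normalized CPM at D20 and 0.50 to 4.82 at D30. Rpl23a was at 228 in D20 organoid 2 and at 43.7 to 83.2 in the other D20 MROs. These 3 genes share 77.4% to 81.7% of their 75-base stretches exactly with genes elsewhere in the annotation. Named pseudogene copies number 7 for Rpl17, 11 for Rpl7a and 14 for Rpl23a. Reads that fit several places were not counted by the authors, and the part of this in the spread was not tested.

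Since many members have such copies, the changes were also read by how unique the transcripts are. Of all 75-base stretches of a member's main annotated transcript, 0% to 98.5% were found exactly in a gene elsewhere. In the 16 tested members with less than 20% of such stretches, 13 were lower at D30 and their median log2 change was -1.07; in the other 67 members it was -1.17, with 62 lower. Rpl8, with 4.89% shared stretches, fell with a log2 fold change of -1.13 ± 0.12 (SE; edgeR adjusted p = 1.17e-08), and Rpl32, with 5.87%, with -1.51 ± 0.14 (SE; edgeR adjusted p = 3.75e-10). Alignments to several places also became fewer over time, from 1.20 to 1.60 per counted read at D20 to 0.76 to 1.23 at D30. The reads on the named -ps copies of members fell from 0.0468% to 0.0197% of counted reads in the mean.

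The 8 tested members that did not pass were of different kinds. Rplp1 is a protein of the ribosomal stalk, and its level was 275 to 396 normalized CPM at D20 (median 348), 219 to 348 at D22 (median 278), 217 to 359 at D25 (median 284) and 251 to 370 at D30 (median 273). The groups overlapped throughout, and the log2 fold change from D20 to D30 was -0.20 ± 0.12 (SE; edgeR adjusted p = 0.221). Both partners in the stalk passed the test: Rplp2 went from 209 to 345 (median 251) at D20 to 84.0 to 132 (median 105) at D30, a log2 fold change of -1.29 ± 0.13 (SE; edgeR adjusted p = 4.85e-09). Rplp0, to which both bind, went from 124 to 177 (median 161) to 44.0 to 72.2 (median 60.2), with -1.39 ± 0.15 (SE; edgeR adjusted p = 5.75e-09).

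Within an MRO, a ratio of counts needs no normalization. Rplp1 had 115% to 140% of the reads of Rplp2 in the D20 MROs, 115% to 175% at D22 with or without D22 organoid 6, 182% to 254% at D25 and 239% to 299% at D30, with no overlap between D20 and the later pair of timepoints. Rplp2 had 135% to 194% of the reads of Rplp0 at D20 and 155% to 206% at D30, which overlapped. The Rplp1 ratios were picked after its values were seen and were not tested. Of the 75-base stretches of Rplp1, 45.9% occur in genes elsewhere, against 48.1% for Rplp2.

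Rpl41 encodes a very short basic peptide of the large subunit and was the only tested member with a positive change from D20 to D30. It was at 68.4 to 100 normalized CPM at D20 (median 89.3), 59.7 to 90.8 at D22 (median 73.3), 65.4 to 89.8 at D25 (median 80.6) and 72.6 to 119 at D30 (median 90.5). The log2 fold change was 0.15 ± 0.12 (SE; edgeR adjusted p = 0.365), within the spread between MROs. Because the sum fell, Rpl41 made up 0.297% of the reads on the 86 genes at D20 and 0.768% at D30, the largest relative gain among the 83.

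**Figure D3:**
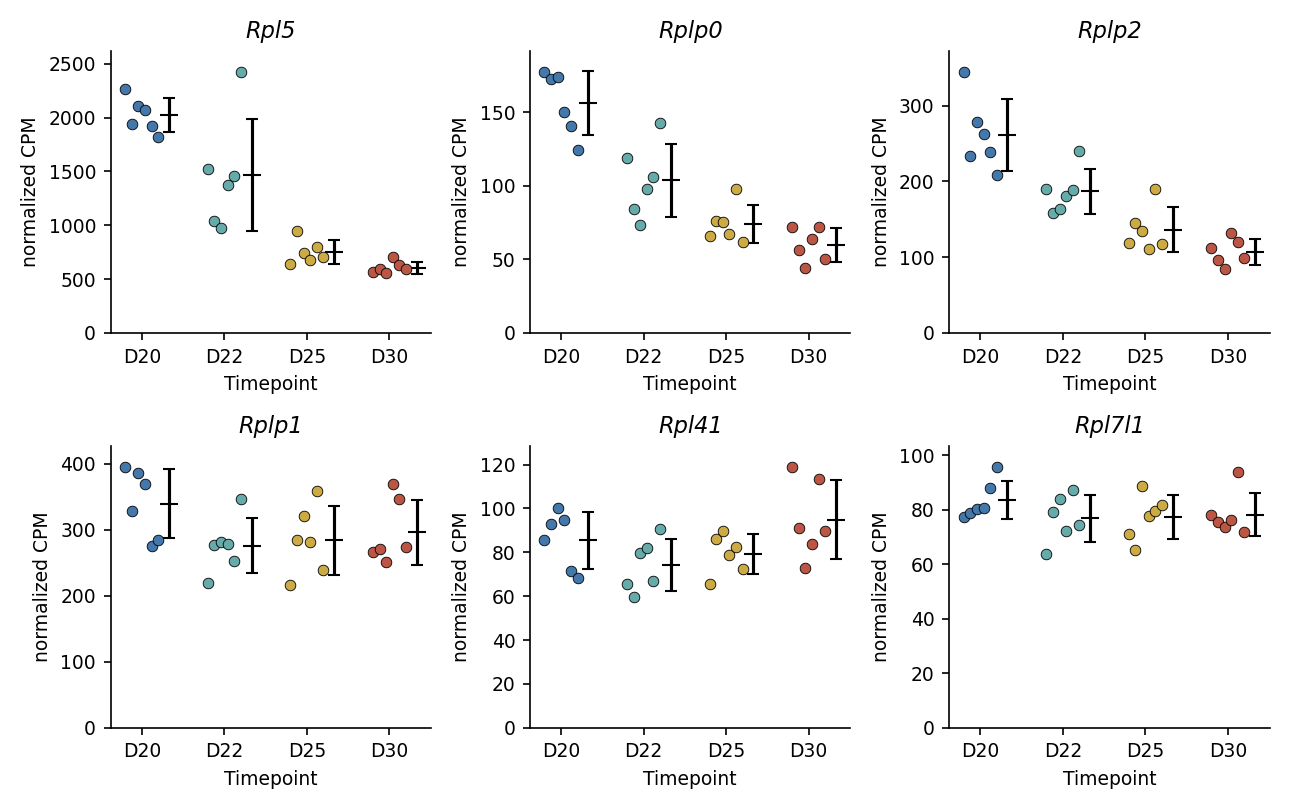
Normalized CPM (y axis, from 0) of 6 genes in each MRO (points, in replicate order) at each timepoint (x axis), with mean ± SD beside the points. Rpl5, Rplp0 and Rplp2 are lower in all D30 MROs than in all D20 MROs, whereas the D20 and D30 values of Rplp1, Rpl41 and Rpl7l1 overlap.

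Rps21 and Rps2 of the small subunit lay close to the threshold. Rps21 was at 208 to 276 normalized CPM at D20 (median 253), 116 to 169 at D25 (median 149) and 134 to 230 at D30 (median 182), with a log2 fold change from D20 to D30 of -0.46 ± 0.15 (SE; edgeR adjusted p = 0.0142). Rps2 was at 41.0 to 59.9 (median 53.8) at D20 and 29.1 to 50.8 (median 40.1) at D30, with -0.40 ± 0.13 (SE; edgeR adjusted p = 0.0126). Scaled to library totals only, both passed, with log2 fold changes of -0.55 for Rps21 and -0.50 for Rps2. Rpl15, a core protein of the large subunit, had a change of much the same size, -0.42 ± 0.11 (SE; edgeR adjusted p = 0.00365), and passed.

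Rpl29 had hardly any unique reads, 0 to 1.60 normalized CPM at D20 and 0.37 to 1.31 at D30, and a change was not detectable at this depth (log2 fold change -0.44 ± 0.58, SE; edgeR adjusted p = 0.591). It shares 69.7% of its stretches with genes elsewhere. Rps19bp1, the partner of Rps19, was at 10.4 to 16.2 normalized CPM at D20 and 10.1 to 16.5 at D30 (log2 fold change -0.08 ± 0.16, SE; edgeR adjusted p = 0.713). The other 2 genes that did not pass, Rpl22l1 and Rpl7l1, are paralogs.

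Paralogs of ribosomal proteins can replace the parent protein in some tissues or act outside the ribosome. Of the 8, 3 had too few reads for testing. Rpl10l and Rpl39l, which are known from the testis, were at 0 reads in all MROs, except for 2 reads of Rpl10l in D30 organoid 6; at the depth of these libraries 3 reads correspond to at most 0.22 CPM. Rpl3l, known from heart and skeletal muscle, was at 0 to 0.47 normalized CPM at D20 (median 0.03), 0 to 1.44 at D22 (median 0.47), 0.12 to 1.74 at D25 (median 0.74) and 0 to 0.75 at D30 (median 0.29), next to 258 to 601 for its parent Rpl3 over all MROs. Coding sequences of Rpl3l and Rpl3 are 73.2% identical, and no 75-base stretch of Rpl3l occurs in a gene elsewhere. Striated muscle markers were at low levels in the same MROs, 25.3 to 66.7 normalized CPM summed over 21 genes.

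In 3 of 5 tested pairs the paralog had more reads relative to its parent at D30 than at D20 at an adjusted p below 0.05. This was the threshold used for the pairs, and 2 of 5 passed at 0.01. The parents Rpl7, Rpl36a (log2 fold change -1.24) and Rpl22 (-1.07) all fell, and none of the 3 paralogs was higher at D30. Any gene that falls less than its parent gains in such a ratio. Rpl7l1 (52.98% identical to Rpl7 in the coding sequence) was at 77.5 to 95.9 normalized CPM at D20 (median 80.5) and 71.9 to 93.7 at D30 (median 76.1), whereas Rpl7 went from 874 to 1100 to 327 to 419. Rpl7l1 thus had 7.05% to 10.97% of the reads of Rpl7 at D20 and 18.2% to 23.02% at D30, 2.32-fold more in the geometric mean (two-sided exact permutation test, p = 0.00216, adjusted over 5 pairs 0.00541). All 6 D30 ratios were above the highest D20 ratio, and this p is the smallest that 6 against 6 MROs can give.

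Rpl36al, a relative of Rpl36a with 87.74% coding identity, was at 30.1 to 48.4 normalized CPM at D20 and 21.1 to 28.6 at D30 (log2 fold change -0.60 ± 0.14, SE; edgeR adjusted p = 0.000722). Its reads were 3.33% to 5.17% of those of Rpl36a at D20 and 5.98% to 7.19% at D30, 1.57-fold more (two-sided exact permutation test, p = 0.00216, adjusted 0.00541; 6 of 6 D30 ratios above the highest D20 ratio). Rpl22l1, which is 66.93% identical to Rpl22 and can take its place in the ribosome, was at 16.4 to 35.0 at D20 and 14.0 to 25.6 at D30 and did not pass (log2 fold change -0.28 ± 0.17, SE; edgeR adjusted p = 0.208). Its ratio to Rpl22 went from 2.77% to 6.27% at D20 to 4.24% to 9.16% at D30, 1.75-fold more (two-sided exact permutation test, p = 0.013, adjusted 0.0216; 4 of 6 D30 ratios above the highest D20 ratio).

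In the other pairs the ratio did not pass the test. Rps27l, a p53-responsive relative of Rps27 with 76.19% coding identity, fell from 26.6 to 39.9 normalized CPM at D20 to 11.7 to 22.5 at D30 (log2 fold change -0.97 ± 0.16, SE; edgeR adjusted p = 1.56e-05). Its reads were 14.2% to 23.4% of those of Rps27 at D20 and 14.96% to 29.6% at D30, and this difference did not pass (two-sided exact permutation test, p = 0.19, adjusted 0.19). Rps27rt has a coding sequence identical to that of Rps27 over its whole length (100%) and shares 90.3% of its stretches with genes elsewhere, so that its counts are uncertain. The counts of the parents Rps27, with 98.52% shared stretches, and Rpl36a, with 84.6%, are uncertain for the same reason, and with them the ratios of Rps27l and Rpl36al. The ratio of Rps27rt to Rps27 was 7.85% to 12.2% at D20 and 7.44% to 9.34% at D30 (two-sided exact permutation test, p = 0.119, adjusted 0.149); without D20 organoid 1 this ratio passed at 0.05, with a log2 change of -0.25.

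**Figure D4:**
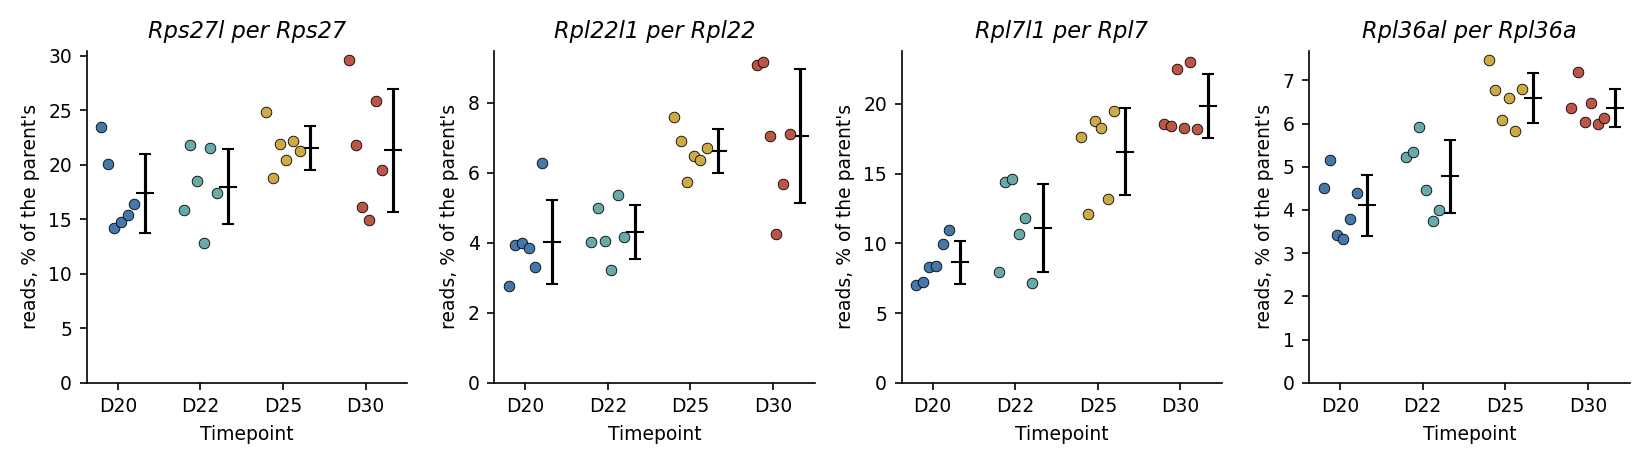
Reads of 4 paralogs as a percent of the reads of their parent gene (y axis, from 0) in each MRO (points, in replicate order) at each timepoint (x axis), with mean ± SD beside the points. The Rpl7l1 and Rpl36al ratios are higher in all D30 MROs than in all D20 MROs, while those of Rps27l and Rpl22l1 overlap between these timepoints.

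The fall was divided over the steps between timepoints. From D20 to D22 the median log2 fold change of the 83 genes was -0.46 and 82 were negative, but only 5 passed the threshold, all lower, where 0.285% of all tested features were lower and 1.62% were higher. Among these were Rpl13, Rpl8, Rpl3 and Rpl4, with log2 fold changes from -0.59 to -0.45; Rpl4, among the most abundant members, was at 1262 to 1713 normalized CPM at D20 and 894 to 1371 at D22, or 894 to 1114 without D22 organoid 6. Without D22 organoid 6 the count was 49 and the median -0.57. In that fit 306 of all 46949 tested features were lower and 1018 were higher. The count of members was 0 without D20 organoid 1, D20 organoid 3, D22 organoid 2 or D22 organoid 3.

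From D22 to D25, 40 of 83 were lower and 0 higher, where 2.19% of all tested features were lower and 3.08% were higher, and the median log2 fold change was -0.50. In 9 of the 83 every D25 MRO was below every D22 MRO, as in 2.29% of all tested features; without D22 organoid 6 it was again 9 of 83, next to 2.69% of all. Among the largest falls that passed were those of Rpl23a, Rpl5 and Rpl23. Rpl5 was at 979 to 2427 normalized CPM at D22, or 979 to 1524 without D22 organoid 6, and 636 to 949 at D25, and its log2 fold change was -0.97 ± 0.14 (SE; edgeR adjusted p = 3.49e-05). It passed without any single MRO, whereas Rpl23a no longer passed without D22 organoid 3, 4 or 6 or without any 1 of the D25 MROs. Without D22 organoid 6, 19 members passed and the median was -0.39. In that fit 704 of all 46949 tested features were lower and 1021 were higher.

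From D25 to D30 no member passed in either direction with edgeR or with DESeq2, while 1.75% of all tested features were lower and 1.76% were higher. The median log2 fold change was -0.20, 71 of 83 were negative, and 17 had an unadjusted p below 0.05.

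**Figure D5:**
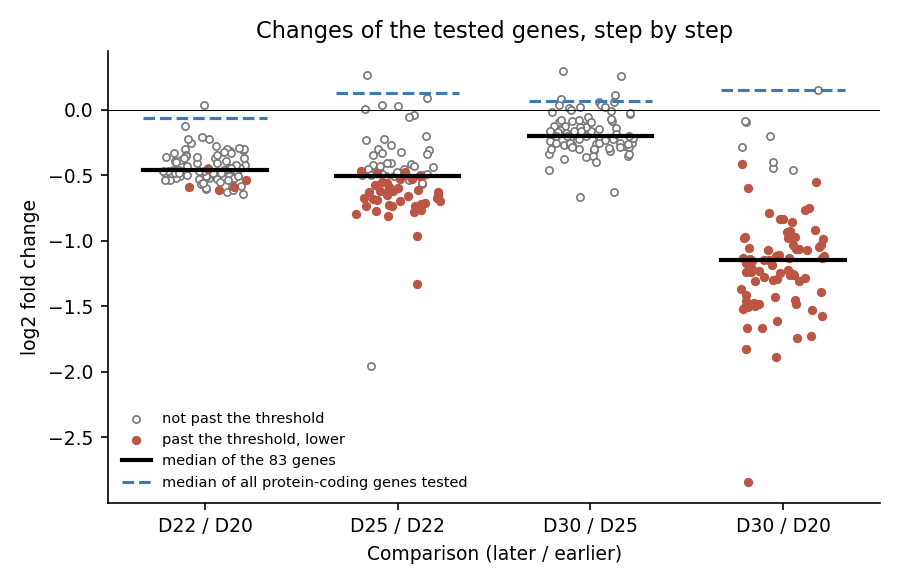
log2 fold change (y axis) of each of the 83 tested genes (points) in each comparison (x axis), with the median of the 83 (solid line) and of all tested protein-coding genes (dashed line). The solid line is at -0.46, -0.50 and -0.20 in the steps and at -1.14 from D20 to D30, and 5, 40, 0 and 75 genes passed the threshold.

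The members varied together between MROs of the same timepoint, and no other set of genes was compared in this respect. For 82 members with a base mean of at least 100, the deviation of log2(normalized CPM + 0.5) from the timepoint mean was compared with the mean deviation of the other members over the 24 MROs, which share library and normalization. The median Pearson r was 0.87 and 62 members were above 0.8; without D22 organoid 6 it was 0.84. Rpl7l1 had the lowest value, -0.22, and Rpl15 (0.14), Rpl7a (0.25), Rpl22l1 (0.26) and Rps19bp1 (0.28) were the others below 0.3.

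Read levels per kilobase of exon differed widely between tested members although most canonical proteins are present in the same number per ribosome. The length used counted all annotated exons of a gene, so that the order also depends on the annotation. For Rplp1 this length was 499 bases, as in its main transcript. For Rpl36a it was 1655 against 483 in the main transcript, and for Rpl21 3400 against 899. Averaged over all MROs, the highest were Rplp1 at 599 normalized CPM per kilobase, Rps3a1 at 555, Rpl4 at 495, Rpl32 at 464 and Rpl36a at 357. At D20 alone the order was Rps3a1 (856), Rpl32 (754), Rpl4 (723), Rplp1 (681) and Rpl36a (552), and at D30 Rplp1, at 594, was the highest, followed by Rps3a1 at 376. At the other end of the 83 tested members were Rpl29 at 0.719, Rpl17 at 7.18, Rpl21 at 9.52, Rpl22l1 at 10.6 and Rps19bp1 at 11.6. Stretches shared with genes elsewhere, from which reads that align to several places were not counted, occurred at both ends: 69.7% in Rpl29, 77.9% in Rpl17 and 47.5% in Rpl21, but also 84.6% in Rpl36a and 60.24% in Rps3a1. Among the other members with well-known roles, Rps6, the substrate of the S6 kinases, fell with a log2 fold change of -1.50 ± 0.16 (SE; edgeR adjusted p = 4.21e-09) and Rpsa, also known as a laminin receptor, with -0.92 ± 0.13 (SE; edgeR adjusted p = 1.31e-06).

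Rack1 and Fau, ribosome components whose symbols lie outside the rule, were lower as well. Rack1, a signalling scaffold on the small subunit, was at 549 to 836 normalized CPM at D20 and 167 to 274 at D30, its log2 fold change being -1.61 ± 0.14 (SE; edgeR adjusted p = 1.58e-10). Fau, the source of eS30, had a log2 fold change of -1.57 ± 0.17 (SE). Of 23 other genes whose mRNAs are known for an oligopyrimidine tract, 18 were lower and 0 higher from D20 to D30, with a median of -0.76. Of all tested features 13.0% were lower and 13.9% higher. The elongation factor gene Eef1a1 went from 1929 to 2619 at D20 to 792 to 1146 at D30, whereas Eif2s3x did not pass (log2 fold change 0.12 ± 0.10, SE; edgeR adjusted p = 0.353).

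Among genes for the making of ribosomes, more were lower than higher from D20 to D30. The counts of these and the following lists from D20 to D30 stand beside 13.0% lower and 13.9% higher among all tested features. Among the tested protein-coding genes 16.5% were lower and 28.8% higher. Of 59 nucleolar and assembly factors, 29 were lower and 3 were higher, with a median log2 fold change of -0.41. Npm1, the abundant nucleolar chaperone, was at 958 to 1295 normalized CPM at D20 and 394 to 490 at D30 (log2 fold change -1.32 ± 0.10, SE), and Nsa2, an assembly factor of the large subunit, fell with -1.83 ± 0.13 (SE). Gnl3l, Pno1 and Efl1 were the 3 that rose. Among 21 genes of the RNA polymerase I machinery and the Myc family, 8 were lower and 2, Max and Mxd4, were higher; Mycn had a log2 fold change of -1.62 ± 0.16 (SE) and Myc, at low levels, 0.16 ± 0.37 (SE; edgeR adjusted p = 0.763).

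The 78 genes for mitochondrial ribosomal proteins, which form the separate ribosome of that organelle, had a share of lower genes near that of all tested features. Of the 77 tested, 9 were lower and 4 higher from D20 to D30, with a median log2 fold change of 0.02. Of all tested features 13.0% were lower and 13.9% higher, and of the tested protein-coding genes 16.5% and 28.8%. The summed level of the 78 genes was 2097 to 2436 normalized CPM at D20 and 1971 to 2354 at D30. Of 20 genes of mTORC1 and the control of oligopyrimidine-tract mRNAs, 4 were lower and 2, Mtor and Tsc2, were higher. With so few genes these shares are near those of all tested features, and the share of higher genes is below that of the tested protein-coding genes. Larp1 had a log2 fold change of -0.50 ± 0.11 (SE; edgeR adjusted p = 0.000411). Of 18 p53 targets, 7 were lower and 2 higher.

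Markers of the cells in the MROs changed over the same days. From D20 to D30, 16 of 20 proliferation markers were lower, and their summed level was 1078 to 1712 normalized CPM at D20, 622 to 1235 at D22, 347 to 1246 at D25 and 438 to 728 at D30. Of 13 retinal progenitor markers 11 were lower (1232 to 1726 at D20, 509 to 606 at D30, summed), and of 12 photoreceptor markers 10 were higher and 1, Otx2, was lower (1442 to 2623 at D20, 7618 to 14880 at D30, summed). Defining markers of the labelled tissue, retina, were thus present at every timepoint. Mueller glia had 6 of 10 markers higher and 2 lower, and bipolar, amacrine, horizontal and ganglion cells 7 of 15 higher and 4 lower. The part of these changes in cell makeup in the ribosomal protein values was not tested. From D22 to D25, 0 of 20 proliferation markers passed (median log2 fold change 0.01), 7 of 13 retinal progenitor markers were lower (median -0.70), and of 12 photoreceptor markers 9 were higher and 1 lower (median 1.21). Without D22 organoid 6 these were 0 of 20 (median 0.02), 4 of 13 lower (median -0.60), and 6 higher and 1 lower of 12 (median 1.09).

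Blood, immune, pluripotent and germ cell markers were close to absent. Blood and immune markers summed to at most 3.97 normalized CPM in any MRO, with Cd3e, Hbb-bs, Hbb-bt and Hba-a1 at 0 counts, and markers of pluripotent and germ cells to at most 2.42, with Tex101, Prm1 and Prm2 at 0. Pigment epithelium markers were present and summed to 26.6 to 241.8 normalized CPM over all MROs, and 1 of the 5 tested was lower and 1 higher from D20 to D30. Of 9 tested striated muscle markers, 4 were lower and 3 higher.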

How the data were processed

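RNA of individual MROs was depleted of ribosomal RNA and sequenced from strand-specific libraries. The authors trimmed the reads (cutadapt 1.5), aligned them to GRCm38 (HISAT2), assembled further transcripts (StringTie 1.3.3) and counted reads on genes and assembled loci (HTSeq 0.6.1), as the study's methods and processing notes give. The deposited values are raw read counts, whole numbers without normalization, for 126602 features, and the summary lines were left out. Whether the counting used strand is not given in the sources used here, so overlapping and antisense genes are uncertain, and reads that aligned to several places were not counted.

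Gene symbols, types and exon lengths came from the GENCODE annotation of the same build. A base mean of 10 or more was required of a feature (46949 passed, with 83 of 86 members). Counts were TMM-normalized and tested with edgeR 4.0.16 (R 4.3.3, quasi-likelihood test, 1 fit of all 24 MROs, no covariates), the p-values of all tested features being adjusted together by Benjamini-Hochberg, with a threshold of 0.01. SE are derived from the test statistic. The tests were run on simulated data first. The 4 comparisons were D22 against D20, D25 against D22, D30 against D25 and D30 against D20. DESeq2 1.42.0, other scalings and filters, the replicate block and leaving out each MRO were alternatives. Paralog and parent counts were compared as log2 ratios within MROs by two-sided exact permutation tests (threshold 0.05), added later.

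The replicate numbers come from the sample titles, which do not say whether MROs with the same number share an origin. No library repeated another of the same timepoint (smallest chi-square per degree of freedom 6.116). Pairs of libraries from different timepoints were not checked in this way. Counting limits cover counting error only; the common biological coefficient of variation was 0.3846.

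Named genes are the paralogs and parents, up to 5 largest changes in either direction per comparison among members past the threshold with base mean of at least 100, the 5 tested members highest and lowest per exon length, the 3 most variable within timepoints with base mean of at least 100, 7 members and Rack1 and Fau for their known roles, members not tested, and those not past the threshold from D20 to D30, which with Rpl15 were picked after their values were seen. Some genes that the rule names are not reported here. Members and lists were chosen with earlier results of these data known.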

Additional observations from a re-analysis of the deposited data

Results flagged for a closer look

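In 164 groups of 6 MROs (40 named genes and the summed share at 4 timepoints), 14 had a highest or lowest MRO that stood far from the others by Dixon's test; chance gives about 1 in 20, or about 8.2. The values below are normalized CPM, and what set these MROs apart was not tested. D25 organoid 5 was the highest of its group for 3 genes, Rpl10 at 73.8 (others 43.9 to 52.7), Rpl11 at 285.9 (others 191 to 223) and Rpl3 at 367.6 (others 258 to 293); it also had the most alignments to several places per counted read at D25, 1.74. D22 organoid 6 was the highest of its group for Rpl36a at 1107 (others 453 to 672) and Rpl21 at 46.4 (others 30.2 to 32.5). Rpl21 also had a high MRO at D20, organoid 6 at 49.5 (others 36.1 to 40.8), and at D25, organoid 2 at 36.5 (others 24.8 to 27.9). Rpl23a in D20 organoid 2 was at 228 (others 43.7 to 83.2). D30 organoid 4 was the highest for Rps27 at 104 (others 68.5 to 78.4) and for Rps27rt at 9.36 (others 5.65 to 7.03), which share their coding sequence. Rpl7l1 was highest in D30 organoid 5 at 93.7 (others 71.9 to 77.9). Low values were those of Rpl39 in D25 organoid 1 at 185 (others 251 to 288) and of Rpl7 in D30 organoid 3 at 327 (others 394 to 419). Rpl10l was at 0.111 in D30 organoid 6 and at 0 in the others.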

How the results depend on the processing

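The medians of the 83 genes kept their direction in each of the 4 comparisons under all alternatives that were run: other settings gave -0.47 to -0.41 from D20 to D22, -0.59 to -0.47 from D22 to D25, -0.27 to -0.15 from D25 to D30 and -1.24 to -1.08 from D20 to D30, and leaving out 1 MRO gave -0.57 to -0.40, -0.60 to -0.39, -0.24 to -0.11 and -1.22 to -1.11. The count of lower genes from D20 to D30 was 74 to 77 under other settings and 74 to 76 without 1 MRO, that from D25 to D30 was 0 throughout, and no member was higher in any of them. Counts between neighbouring timepoints depended on the setting. From D20 to D22, 23 members were lower with DESeq2, 12 with library totals only, 17 without a filter on low counts, 2 with annotated genes only, 2 with the replicate block, 13 with only the compared timepoints and 0 to 49 without 1 MRO: 0 without D20 organoid 1 or 3 or D22 organoid 2 or 3, 1 without D20 organoid 2 or 4, 2 without D22 organoid 1, 4 or 5, 8 without D20 organoid 6 and 49 without D22 organoid 6. From D22 to D25 the count was 28 to 60 under other settings, the latter with annotated genes only being within 1.5 times the 40 of the main test, and 19 to 49 without 1 MRO: 19 without D22 organoid 6, 26 without D22 organoid 1, 23 without D25 organoid 1 or 6 and 24 without D25 organoid 4. The cause was not tested, except that leaving out MROs means fewer samples. Summed shares as a percent of reads on annotated genes only had medians of 3.53% at D20, 1.56% at D25 and 1.40% at D30, since that denominator is smaller, and still fell. Of 36 correlations between same-numbered MROs, 1 was above 0.1 (0.2566, replicate 1 at D25 and D30). MROs with different numbers were not set beside them, so whether same-numbered MROs belong together was not tested. With the replicate block 2 members were lower at D22 than at D20 and 28 were lower at D25 than at D22. From D20 to D30 it was 75, as in the main test. Of 1218 recomputed values for named genes 1100 stayed on their side of the threshold, 109 no longer passed, all in the steps from D20 to D25, 9 passed only under the alternative, all Rps2 or Rps21, and 0 reversed. A count of 3 reads is the limit that a count of 0 allows, at most 0.22 CPM, so that levels of Rpl10l and Rpl39l below it could not be seen.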
